A study of Mus musculus with 2 samples.

Results

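The 56 genes described here were taken from the deposited gene table by their symbols, from families of the cyclic AMP (cAMP) pathway. These are the adenylyl cyclases (*Adcy*), the phosphodiesterases (*Pde*), the regulatory (*Prkar*) and catalytic (*Prkaca*, *Prkacb*) subunits of protein kinase A (PKA), the numbered A-kinase anchoring proteins (*Akap*), the Epac exchange factors *Rapgef3* and *Rapgef4*, and the transcription factors *Creb1*, *Crem* and *Atf1*. The *Pde* symbols also cover enzymes that are specific for cyclic GMP, among them *Pde5a* and *Pde9a*, and these are counted with the phosphodiesterases. So is *Pde6d*, which is placed there by its symbol alone, since its product is not a catalytic subunit. In all, 56 of 32285 genes were taken. Their RNA was measured in nuclei of whole testes of mouse embryos at E14.5 (days after conception), collected from embryos that carried *Nr5a1-cre* and *Rosa-tdTomato*. The *Nr5a1-cre* transgene is driven by sequence of *Nr5a1*, a gene of steroid-producing and gonadal supporting cells, and no group without it was analysed here. RNA and open chromatin (ATAC, in which a transposase cuts accessible DNA) were read from the same nuclei by 10x multiome, with 1 library each. The labels and methods used do not give the number of embryos behind the library. There is no replicate, so no test between animals was possible, and every interval below is an exact 95% interval that covers counting error only.

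Cyclic AMP is made from ATP by adenylyl cyclases when a receptor activates a stimulatory G protein, and it is removed by phosphodiesterases. It releases the catalytic subunits of PKA from their regulatory subunits, and it also acts through Epac. PKA phosphorylates CREB family factors, which bind the cAMP response element in promoters, while anchoring proteins hold PKA at sites in the cell. Leydig cells are the androgen-producing cells of the testis. In adult Leydig cells this pathway is known to carry the signal of luteinizing hormone to steroid synthesis. Whether it does so at E14.5 was not tested here.

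After filters on quality and doublets, 7197 nuclei with a median of 7949 RNA molecules (UMIs) were kept, and they were placed in 12 classes by marker genes, with the 56 genes left out of the clustering. The classes hold 2588 progenitor-like, 990 germ-like, 829 Sertoli-like, 756 Leydig-like, 733 contractile-like, 393 mesonephric mesenchyme-like and 545 surface epithelium-like nuclei, followed by 66 pericyte-like, 98 endothelial-like, 47 erythroid-like, 69 immune-like and 83 supporting-like nuclei. Defining markers separated the classes compared most to unequal extents. *Cyp11a1*, which starts steroid synthesis, stood at 1200.4 CPM (UMIs of a gene per 1000000 UMIs of the class) in Leydig-like and 44.6 in progenitor-like nuclei. The 5 Leydig markers stood in progenitor-like nuclei at 3.71 to 31.6% (median 6.99%) of their Leydig-like level, *Cyp11a1* being the lowest. *Pdgfra* was at 145 in the Leydig-like cluster and at 664 and 610 in the 2 progenitor-like clusters. The 6 progenitor markers stood in Leydig-like nuclei at 20.7 to 41.5% (median 25.7%) of their progenitor-like level. In contractile-like nuclei they were at 28.7 to 167.9% (median 90.5%) and in surface epithelium-like nuclei at 10.2 to 150.1%, so that some were higher there than in the progenitor-like class. Levels below are CPM over class totals of 443099 UMIs in erythroid-like to 20922868 in germ-like nuclei, summed over nuclei. Of the 56 genes, 49 had at least 100 UMIs in kept nuclei, and *Akap3*, *Akap4*, *Akap14*, *Pde1b*, *Pde6a*, *Pde6b* and *Pde6c* had fewer. The 49 varied over the 7 large classes by a median of 5.52-fold between highest and lowest class, beside 3.06-fold over the 15226 genes with as many UMIs.

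**Figure D1:**
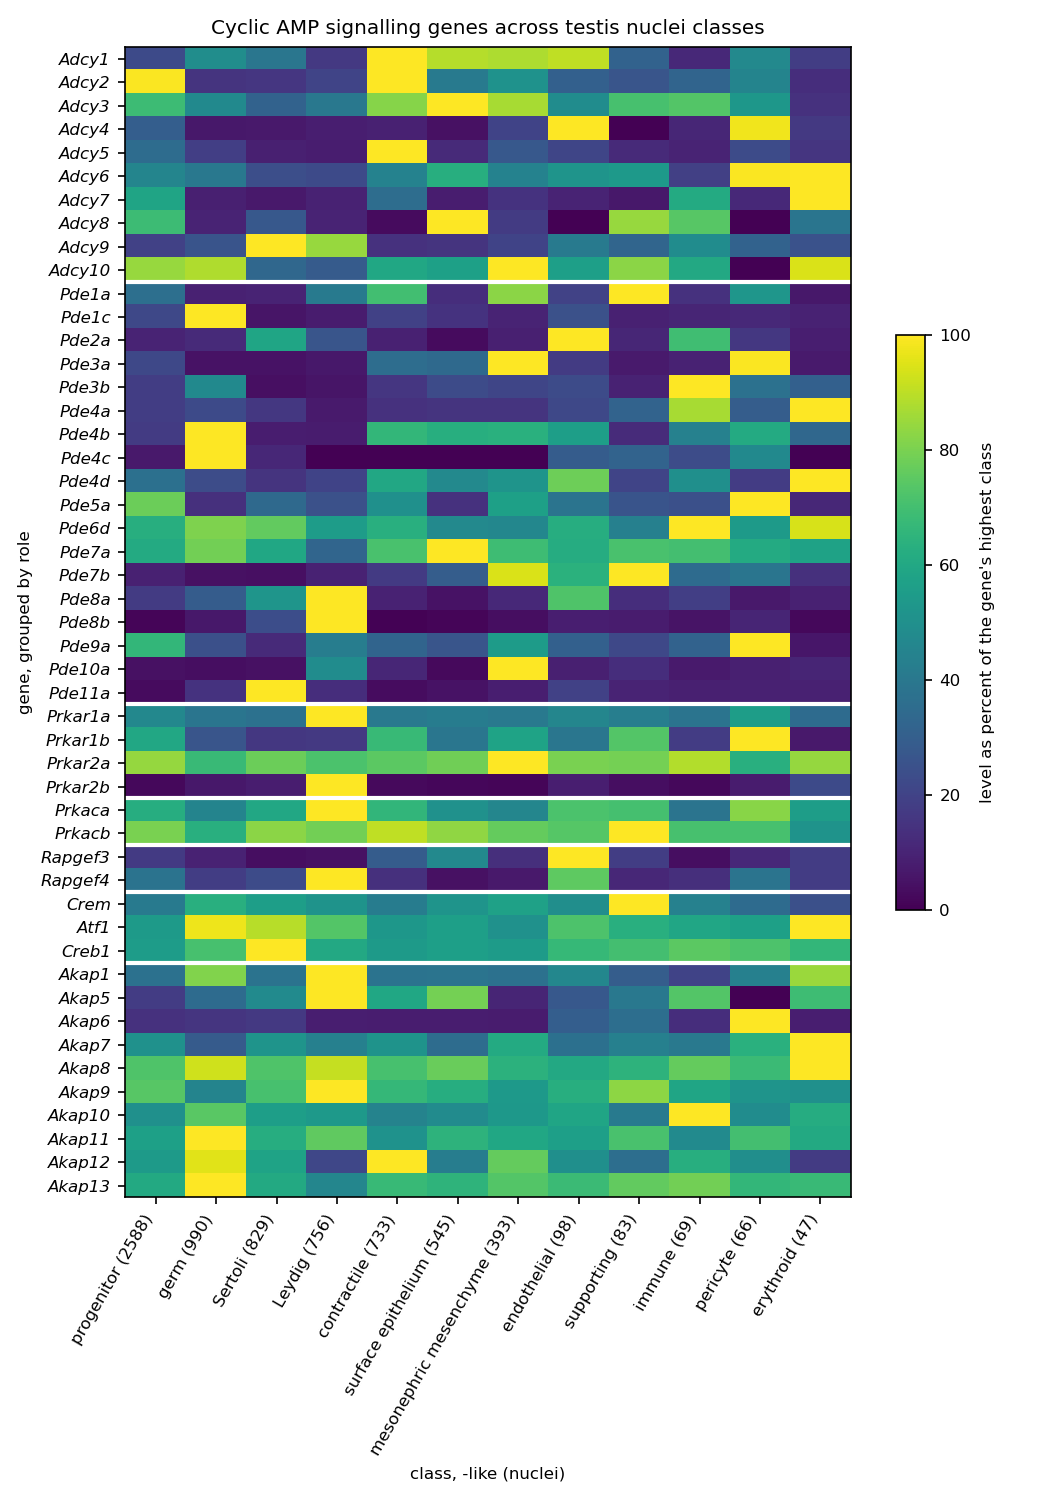
The 49 of the 56 genes with at least 100 UMIs (rows, grouped by role) in the 12 classes (columns, with their number of nuclei). Colour gives the summed CPM as a percent of that gene's highest class. *Prkar2b* and *Pde8b* peak in Leydig-like nuclei, *Pde11a* in Sertoli-like and *Pde1c* in germ-like nuclei, while *Prkacb*, *Prkar2a* and *Akap8* are close to even; the 5 classes at the right hold under 100 nuclei each.

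The comparison of Leydig-like with progenitor-like nuclei asks how the pathway differs between the androgen-producing cells and the interstitial cells from which they are thought to arise. Of the 43 members with at least 100 UMIs over both classes, 10 were at least 2-fold higher in Leydig-like nuclei, which is 23.3% beside a background of 10.8% of all 11848 genes tested. Another 13 were at least 2-fold lower, 30.2% beside a background of 13.7%. The minimum is a sum over both classes, for members and all genes alike, and some members reached it only with their higher class. In Leydig-like and progenitor-like nuclei *Akap5* had 86 and 33 UMIs, *Pde2a* 62 and 50, and *Pde4a* 16 and 85. The lower members *Adcy5*, *Adcy6*, *Prkar1b* and *Rapgef3* also had under 100 UMIs in Leydig-like nuclei. The median log2 ratio was -0.18 over the members and 0.02 over all genes tested. The higher members were *Pde8b*, *Prkar2b*, *Pde10a*, *Pde8a*, *Akap5*, *Adcy9*, *Akap1*, *Pde2a*, *Rapgef4* and *Prkar1a*. The lower members were *Adcy7*, *Adcy2*, *Adcy5*, *Adcy6*, *Rapgef3*, *Prkar1b*, *Pde3a*, *Pde3b*, *Pde5a*, *Pde1c*, *Pde4a*, *Pde4b* and *Akap12*. By role, the cyclases had 1 higher and 4 lower of 6 tested, the phosphodiesterases 4 higher and 6 lower of 16, the PKA regulatory subunits 2 higher and 1 lower of 4, and the anchoring proteins 2 higher and 1 lower of 10. The 2 catalytic subunits and the 3 CREB family factors were within 2-fold.

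**Figure D2:**
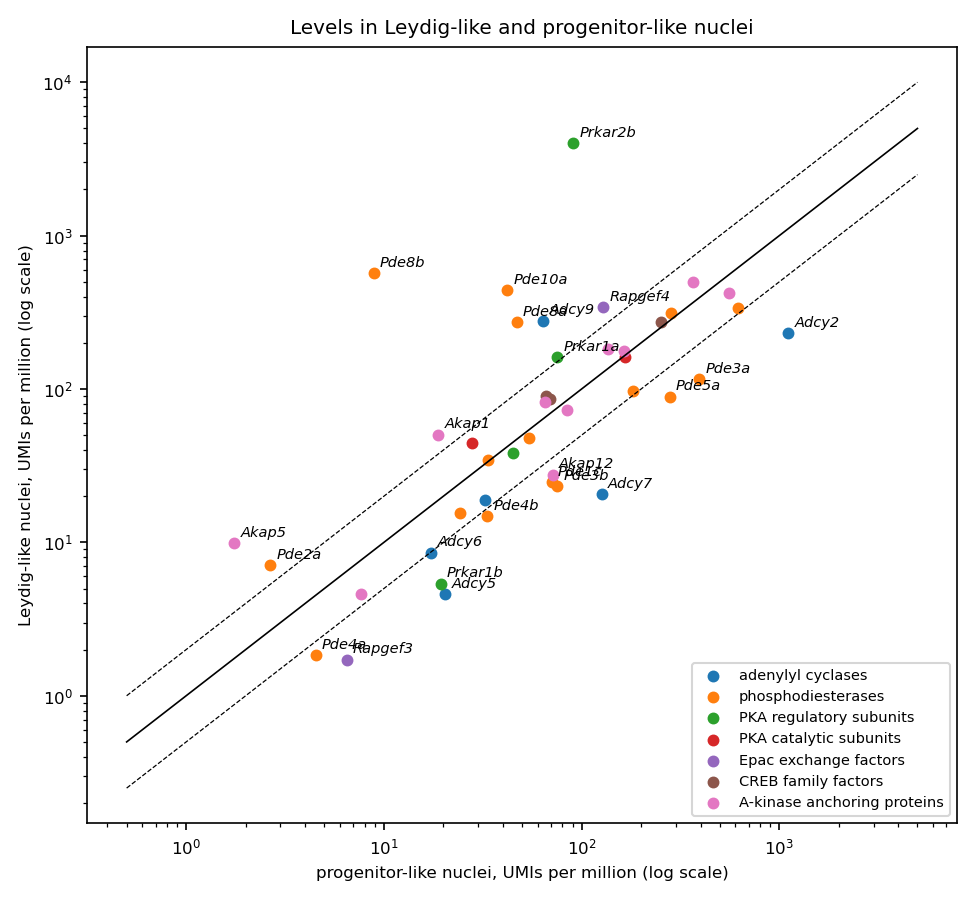
Summed CPM of the 43 members with at least 100 UMIs over both classes in progenitor-like (horizontal axis) and Leydig-like nuclei (vertical axis), both on log scales and coloured by role; the solid line marks equal levels and the dashed lines 2-fold. *Prkar2b* (3994 against 91.0) and *Pde8b* (573 against 8.88) lie farthest above the line, and *Adcy7* (20.7 against 127) and *Adcy2* (231 against 1111) farthest below it.

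The adenylyl cyclases, which make cAMP, divided by class. *Adcy9* (chr16:4287529-4420498, minus strand, GRCm38), a widely expressed membrane cyclase, was at 331 CPM in Sertoli-like, 279 in Leydig-like, 85.9 in germ-like, 65.9 in mesonephric mesenchyme-like, 64.0 in progenitor-like, 49.6 in surface epithelium-like and 47.1 in contractile-like nuclei. Its level in Sertoli-like and in Leydig-like nuclei thus stood apart from the other large classes, at 4.36-fold (4.07 to 4.68) of the progenitor-like level in Leydig-like nuclei. *Adcy2*, a cyclase that G protein beta-gamma subunits stimulate, was ordered differently. It stood at 1118 in contractile-like and 1111 in progenitor-like nuclei, which do not differ beyond their intervals, and at 570 in mesonephric mesenchyme-like, 456 in surface epithelium-like, 231 in Leydig-like, 175 in Sertoli-like and 168 in germ-like nuclei. *Adcy7*, which G protein beta-gamma subunits also stimulate, was at 127 in progenitor-like and 77.7 in contractile-like nuclei, and between 14.7 and 32.1 in the other 5 large classes. *Adcy2* was thus 4.81-fold (4.60 to 5.04) and *Adcy7* 6.12-fold (5.26 to 7.16) higher in progenitor-like than in Leydig-like nuclei. *Adcy5*, a calcium-inhibited cyclase, was highest in contractile-like nuclei (57.9, 51.8 to 64.6), with 20.5 in progenitor-like against 4.58 in Leydig-like nuclei. *Adcy6*, its closest relative, lay just past the threshold, at 17.4 in progenitor-like against 8.59 in Leydig-like nuclei, which is 2.03-fold (1.57 to 2.64), and its ratio came within 2-fold at stricter minimums and at a finer clustering. Levels of different genes are set side by side below per kb of gene span, on the assumption, not tested here, that UMIs from nuclei scale with it, and the order in CPM is given where it differs. Per kb of gene span, *Adcy9* led the cyclases in Leydig-like nuclei with 2.10 CPM per kb, before *Adcy2* with 0.609. In progenitor-like nuclei *Adcy2* led with 2.93, followed by *Adcy7* with 2.20, and *Adcy9* had 0.481.

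The phosphodiesterases of the Pde8 family, which break down cAMP and not cyclic GMP (cGMP), held the largest ratio of Leydig-like over progenitor-like nuclei. *Pde8b* (ENSMUSG00000021684, chr13:95024454-95250336, minus strand) had 5002 UMIs in Leydig-like and 167 in progenitor-like nuclei, or 573 (557 to 589) against 8.88 CPM, a ratio of 64.5 (55.2 to 75.7). Elsewhere it stood at 134 in Sertoli-like, 37.3 in germ-like, 21.5 in mesonephric mesenchyme-like, 7.19 in surface epithelium-like and 3.57 in contractile-like nuclei. Leydig-like nuclei thus had by far the highest level and Sertoli-like nuclei the second. *Pde8a* was at 273 in Leydig-like, 142 in Sertoli-like, 79.1 in germ-like and 47.0 in progenitor-like nuclei. It was at 31.4, 26.0 and 13.8 in the mesonephric mesenchyme-like, contractile-like and surface epithelium-like classes. Among the 7 large classes both Pde8 genes were thus highest in Leydig-like and next in Sertoli-like nuclei. *Pde10a*, which splits both cAMP and cGMP, was highest in mesonephric mesenchyme-like nuclei at 905 (871 to 940), followed by 440 in Leydig-like and 95.9 in contractile-like nuclei, while the other 4 large classes held between 24.7 and 42.1. *Pde2a*, a cAMP-splitting enzyme that cGMP stimulates, was low throughout and was at 7.10 in Leydig-like, 2.66 in progenitor-like and 15.9 in Sertoli-like nuclei, with 27.1 in endothelial-like and 18.7 in immune-like nuclei, the latter from 13 UMIs.

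The phosphodiesterases that were lower in Leydig-like nuclei included enzymes that bind cGMP, as did the higher ones with *Pde10a* and *Pde2a*. *Pde5a*, which is specific for cGMP, was at 279 in progenitor-like against 89.3 in Leydig-like nuclei and so 3.12-fold (2.90 to 3.37) higher in the former. *Pde3a* and *Pde3b*, which split cAMP and are inhibited by cGMP, were 3.40-fold (3.18 to 3.63) and 3.24-fold (2.80 to 3.77) higher in progenitor-like nuclei. *Pde1c*, which calcium and calmodulin activate, was at 70.7 against 24.7. The cAMP-specific *Pde4a* (4.52 against 1.83) and *Pde4b* (33.3 against 14.8) were also lower in Leydig-like nuclei, but the Leydig-like over progenitor-like ratio of *Pde4b* moved from 0.444 to 0.761 when no doublets were removed and to 0.610 without the cycling progenitor-like nuclei, both within 2-fold. Per kb of gene, *Pde8b* (2.54) and *Pde8a* (2.25) led the phosphodiesterases in Leydig-like nuclei, and *Pde5a* (2.14), *Pde7a* (2.06) and *Pde3a* (1.53) did so in progenitor-like nuclei. In CPM the order differed, with *Pde8b* (573), *Pde10a* (440) and the long gene *Pde4d* (338) first in Leydig-like nuclei and *Pde4d* (616) and *Pde3a* (395) in progenitor-like nuclei.

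The regulatory subunits, which hold PKA inactive until cAMP binds, showed the largest single level. *Prkar2b*, the type II beta subunit (ENSMUSG00000002997, chr12:31958476-32061296, minus strand, GRCm38), had 34888 UMIs in Leydig-like nuclei, or 3994 CPM (3952 to 4036). It stood at 313 in Sertoli-like, 257 in germ-like, 93.8 in contractile-like, 91.0 in progenitor-like, 73.1 in surface epithelium-like and 61.5 in mesonephric mesenchyme-like nuclei. It was thus 43.9-fold (41.8 to 46.1) higher in Leydig-like than in progenitor-like nuclei and 21.2-fold (20.8 to 21.7) higher than in all other nuclei together. The second ratio ran from 16.1 on classes from ATAC alone to 116.4 with free RNA subtracted. *Prkar1a*, the type I alpha subunit, was at 162 (153 to 170) in Leydig-like nuclei and between 60.6 and 75.4 in the other 6 large classes. *Prkar1b*, the type I beta subunit, which overlaps a predicted gene on its strand, went the other way, with 19.4 in progenitor-like against 5.38 in Leydig-like nuclei. *Prkar2a*, the type II alpha subunit, was between 36.3 and 53.6 in the 7 large classes. In CPM the 4 subunits had the same order in both classes, *Prkar2b*, *Prkar1a*, *Prkar2a* and *Prkar1b*. Per kb of gene the first and second changed places in progenitor-like nuclei: *Prkar2b* 38.8, *Prkar1a* 7.98, *Prkar2a* 0.627 and *Prkar1b* 0.0405 in Leydig-like nuclei, against *Prkar1a* 3.72, *Prkar2b* 0.885, *Prkar2a* 0.740 and *Prkar1b* 0.146 in progenitor-like nuclei.

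Most Leydig-like nuclei carried *Prkar2b*. With every nucleus thinned to 2000 UMIs, 95.9% (94.2 to 97.2) of 753 Leydig-like nuclei held a UMI of it, beside 35.2% of Sertoli-like, 19.7% of germ-like and 14.3% of progenitor-like nuclei. Without thinning the shares were 99.1% in Leydig-like and 69.2% in germ-like nuclei, at median depths of 9859 and 15617 UMIs. Free RNA puts UMIs of abundant genes into other nuclei. The 5 Leydig markers stood in germ-like nuclei at 5.54 to 19.2% of their Leydig-like level, and *Prkar2b* was at 6.45% and *Pde8b* at 6.52% there, both within that range. In Sertoli-like nuclei those markers were at 4.97 to 23.0% of their Leydig-like level, with a median of 7.70%. *Prkar2b* was at 7.83% there, within that range, while *Pde8b* at 23.4% and *Pde8a* at 52.2% were above it. Erythroid-like nuclei had the second highest *Prkar2b* level of the 12 classes, at 896, and 80.9% (66.7 to 90.9) of 47 held a UMI of it after thinning. That is 22.4% of the Leydig-like level, near the top of the 4.24 to 23.0% of the markers and above their median of 6.45%. *Pde8b* was at 1.97% there, under that range. In progenitor-like nuclei *Prkar2b* was at 2.28% and *Pde8b* at 1.55% of the Leydig-like level, both under the 3.71 to 31.6% of the markers, so the ratios of 43.9 and 64.5 rest on a progenitor-like level no higher, relative to Leydig-like nuclei, than that of the markers. How much of these levels free RNA gave was not tested. The subtraction tried as another way of processing takes a profile pooled over all barcodes, nuclei included.

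The catalytic subunits, which carry the kinase activity, and the CREB family factors differed little. *Prkaca* was at 44.6 in Leydig-like and between 20.2 and 29.4 in the other large classes, a ratio of 1.60 (1.40 to 1.83) over progenitor-like nuclei. *Prkacb* was at 163 in Leydig-like and 165 in progenitor-like nuclei, and the interval of the ratio, 0.925 to 1.05, includes no difference. *Creb1*, *Crem* and *Atf1* were 1.09-fold, 1.25-fold and 1.35-fold higher in Leydig-like than in progenitor-like nuclei. Among the large classes *Creb1* was highest in Sertoli-like (454) and *Atf1* and *Crem* in germ-like nuclei (119 and 106).

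Of the Epac exchange factors, which load Rap GTPases in response to cAMP, *Rapgef4* (Epac2) was at 340 in Leydig-like, 129 in progenitor-like, 77.7 in Sertoli-like, 62.2 in germ-like and 47.4 in contractile-like nuclei, with 23.6 in mesonephric mesenchyme-like and 15.9 in surface epithelium-like nuclei. Endothelial-like nuclei held 257 CPM of it, nearer to the Leydig-like level than any large class. It was 2.64-fold (2.50 to 2.78) higher in Leydig-like than in progenitor-like nuclei. *Rapgef3* (Epac1) differed in its order, with 17.9 in surface epithelium-like, 11.1 in contractile-like, 6.49 in progenitor-like, 1.72 in Leydig-like and 1.40 in Sertoli-like nuclei, and 37.9 in endothelial-like nuclei. Its Leydig-like over progenitor-like ratio, 0.265, was 0.580 on classes from ATAC alone. Of the anchoring proteins, *Akap1*, which tethers PKA to mitochondria, was at 50.5 in Leydig-like, 41.0 in germ-like and between 18.8 and 19.4 in the other 5 large classes. *Akap5*, a plasma membrane anchor, was low but 5.61-fold (3.71 to 8.65) higher in Leydig-like than in progenitor-like nuclei, at 9.85 against 1.76. These levels rest on 86 and 33 UMIs. *Akap12* (gravin), a scaffold of PKA and protein kinase C, was at 131 in contractile-like, 125 in germ-like, 71.6 in progenitor-like against 27.7 in Leydig-like nuclei, the lowest of the large classes. Its Leydig-like over progenitor-like ratio of 0.387 became 0.525 at stricter minimums of genes and fragments.

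**Figure D3:**
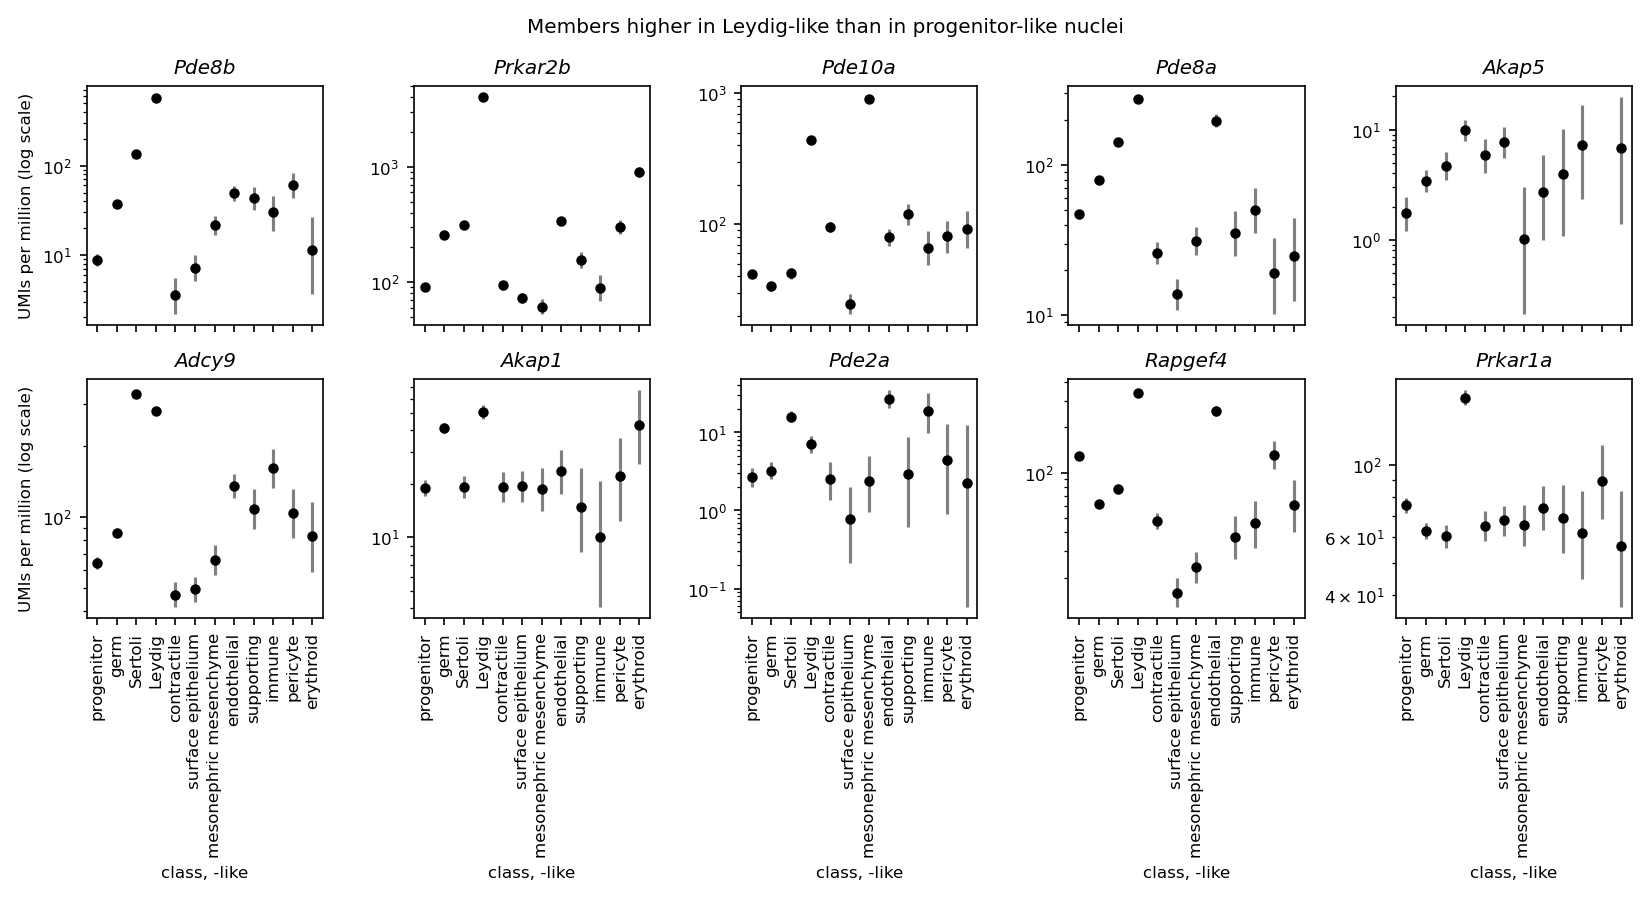
Summed CPM (vertical axes, log scale) of the 10 members at least 2-fold higher in Leydig-like than in progenitor-like nuclei, in each class (horizontal axis); points give the level and bars the exact 95% Poisson interval, and a class with 0 UMIs has no point. Leydig-like nuclei are highest for *Prkar2b*, *Pde8b*, *Prkar1a*, *Rapgef4*, *Pde8a*, *Akap1* and *Akap5*, while *Adcy9* and *Pde2a* are higher in Sertoli-like nuclei, *Pde2a* also in endothelial-like and immune-like nuclei, and *Pde10a* is higher in mesonephric mesenchyme-like nuclei.

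Each large class was next set against all other nuclei, to see which members mark it. Leydig-like nuclei had 8 of the 49 members at least 2-fold higher, 16.3% beside a background of 7.27% of all genes: *Prkar2b*, *Pde8b* (14.9-fold), *Pde10a* (5.32-fold), *Rapgef4* (4.10-fold), *Pde8a* (3.89-fold), *Akap5* (2.74-fold), *Adcy9* (2.50-fold) and *Prkar1a* (2.40-fold). The ratio of *Pde8b* ran from 11.3 on classes from ATAC alone to 31.9 with free RNA subtracted. Progenitor-like nuclei had 6, beside a background of 5.11%: *Adcy7* (4.60-fold), *Adcy2* (3.36-fold), *Adcy8* (3.06-fold), *Pde5a* (2.88-fold), *Adcy4* (2.46-fold) and *Pde9a* (2.33-fold). That is 12.2% of the members, with 4 cyclases and 2 enzymes that are specific for cGMP. Cyclases made up 10 of the 49 members. *Adcy8* and *Adcy4* were low, at 3.99 and 4.04 CPM from 75 and 76 UMIs, of 151 and 172 in all kept nuclei. Without the progenitor-like nuclei neither would have reached the minimum of 100. *Adcy8* was higher in surface epithelium-like nuclei (5.83), and *Adcy2* was at 1118 in contractile-like against 1111 in progenitor-like nuclei. Contractile-like nuclei had 5, or 10.2% beside a background of 3.64%: *Adcy5* (4.96-fold), *Pde1a* (2.71-fold), *Adcy1* (2.40-fold), *Adcy2* (2.36-fold) and *Pde3a* (2.12-fold), of which *Adcy1* and *Pde3a* dropped under 2-fold in 4 and 5 of the other ways of processing.

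Mesonephric mesenchyme-like nuclei had 4, or 8.16% beside a background of 4.55%. All 4 were phosphodiesterases, as were 18 of the 49 members: *Pde10a* (9.79-fold), *Pde7b* (7.51-fold, a cAMP-specific enzyme), *Pde3a* (6.67-fold) and *Pde1a* (3.08-fold). The first 3 were at 3.42-fold, 2.95-fold and 3.53-fold on classes from ATAC alone, and between 12.3-fold and 19.3-fold with free RNA subtracted. The ATAC-only class of this name held 1155 nuclei against 393 here, with *Myocd* and *Col4a4* among its leading genes. No ATAC-only cluster was named contractile-like, so the make-up of the class differs. *Pde3a* reached 1834 CPM (1785 to 1883) there, against 655 in contractile-like, 623 in surface epithelium-like and 395 in progenitor-like nuclei and between 90.1 and 116 in the Sertoli-like, germ-like and Leydig-like classes. Surface epithelium-like nuclei had 3, or 6.12% beside a background of 5.6%: *Adcy8* (3.47-fold), *Rapgef3* (3.21-fold) and *Adcy1* (2.07-fold). *Adcy8* was at 1.89-fold on classes from ATAC alone and *Adcy1* at 1.98-fold with no doublets removed.

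In the cords, the members stood close to or under the background. Sertoli-like nuclei had 3 of 49, 6.12% beside a background of 7.75%, and germ-like nuclei 4 of 49, 8.16% beside a background of 16.2%. *Pde11a*, which splits both cAMP and cGMP, was at 48.7 (44.5 to 53.3) in Sertoli-like nuclei and between 1.49 and 7.22 in the other 6 large classes, and was 10.9-fold over all other nuclei, a ratio that ran from 9.87 with no doublets removed to 24.6 with free RNA subtracted. *Pde2a* was 3.76-fold and *Adcy9* 3.28-fold higher in Sertoli-like nuclei than in the others. The 4 germ-like members were phosphodiesterases, as were 18 of the 49 members: *Pde1c*, at 329 against 18.2 to 70.7 in the other large classes, *Pde4b* (190), *Pde3b* (197) and *Pde4c* (6.21, with 130 UMIs). Their ratios over other nuclei were 6.84, 3.56, 3.07 and 14.6. *Pde4c* had 154 UMIs in all kept nuclei, and without the germ-like nuclei it would not have reached the minimum of UMIs. Its place among the 4 thus depends on the class in which it was high, and its ratio rests on few UMIs in other nuclei. With free RNA subtracted the ratios of *Pde1c* and *Pde4c* were 22.3 and 55.1. At a finer clustering those of *Pde4b* and *Pde4c* were 1.89 and 1.99. That clustering named only 390 nuclei germ-like. Clusters of 531 and 68 nuclei, nearest to germ by their markers, were left unnamed and so stood among the other nuclei.

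The small classes rest on fewer UMIs, and the 3 members of largest ratio over other nuclei are given for each. In endothelial-like nuclei, of which 6 held over 50000 UMIs each, these were *Adcy4* (7.14-fold, 4.65 to 10.6), *Pde1b* (7.09-fold, from 13 UMIs) and *Rapgef3* (6.94-fold, 5.42 to 8.80). Pericyte-like nuclei had *Akap6* (7.31-fold, 5.09 to 10.2), an anchor of the nuclear envelope in muscle, *Adcy4* (6.20-fold, from 9 UMIs) and *Pde3a* (5.68-fold, 5.36 to 6.02). Immune-like nuclei had *Pde1b* (15.0-fold, from 9 UMIs), *Pde4a* (4.81-fold, 2.66 to 8.05) and *Pde3b* (4.26-fold, 3.78 to 4.80). Supporting-like nuclei had *Pde7b* (6.87-fold, 6.16 to 7.64) and *Pde1a* (3.58-fold, 3.33 to 3.85), and *Pde6c* there rests on 1 UMI (3.76-fold, 0.0906 to 23.5). Erythroid-like nuclei had *Pde4a* (5.49-fold, from 11 UMIs) and *Adcy7* (4.26-fold, 3.44 to 5.22), and *Pde6a* there rests on 1 UMI (3.53-fold, 0.0877 to 20.6).

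The progenitor-like class joined 2 clusters, of which the smaller, with 604 nuclei, held 647 CPM of *Mki67*, a gene of dividing cells, against 102 in the other 1984 nuclei. *Pde3b* (2.39-fold, 2.15 to 2.66), *Pde4b* (2.13-fold, 1.82 to 2.50) and *Pde1c* (1.94-fold, 1.74 to 2.16) were higher in the cycling cluster. These 3 were chosen after their values were seen. *Adcy9* was lower there, at 40.5 against 75.6, while *Prkar2b* (85.2 against 93.8) and *Pde8b* (8.33 against 9.16) had ratios whose intervals include no difference.

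Other genes of the pathway were grouped in 8 lists, which hold no member and were drawn up with earlier results of these data known. Unlike the members, these genes were not left out of the clustering, so they could shape the classes compared here. Among the receptors that raise cAMP, 7 of 31 had enough UMIs, and 4 were higher and 2 lower in Leydig-like than in progenitor-like nuclei. The background for each list is the 10.8% higher and 13.7% lower of all genes given above, and with so few genes a list a count of 1 is near it. *Crhr1*, the receptor of corticotropin-releasing hormone, was at 235 against 3.94, *Lhcgr*, the luteinizing hormone receptor, at 1019 against 38.5, and *Mc2r*, the corticotropin receptor, at 64.3 against 3.46, while *Pth1r* (8.24 against 27.6) and *Calcrl* (17.1 against 55.5) were lower. *Crhr1* and *Lhcgr* were among the leading genes of the Leydig-like cluster. *Crhr1* and *Mc2r* had only 74 and 65 UMIs in progenitor-like nuclei. They reached the minimum, a sum over both classes, through 2053 and 562 UMIs in Leydig-like nuclei. Of 5 G protein alpha subunits tested, *Gnao1* was 3.70-fold higher and *Gnai1*, which inhibits cyclases, 3.86-fold lower. The stimulatory subunit *Gnas* was at 450 against 640, a ratio of 0.703 (0.678 to 0.729). *Gnai2* (0.658) and *Gnai3* (1.11) were also within 2-fold. Of the guanylyl cyclases and cGMP kinases, which serve the sister messenger cGMP, 1 of 6 was higher (*Npr1*, 3.18-fold) and 4 were lower, led by *Gucy1b1* at 32.3 against 179, *Gucy1a2* and *Gucy1a1*, the subunits of soluble guanylyl cyclase. Of 8 anchoring proteins outside the numbered family 2 were higher, *Sphkap* (27.4-fold) and *Lrba* (2.59-fold). Of the other cAMP effectors 1 of 5 was higher, the channel gene *Hcn3* (10.9-fold). *Sphkap* and *Hcn3* likewise reached the minimum through Leydig-like nuclei, with 739 and 242 UMIs there against 58 and 48 in progenitor-like nuclei. Of 14 further factors and coactivators at the cAMP response element, *Atf4* was 2.16-fold higher and *Creb5* (2.85-fold) and *Creb3l1* (2.01-fold) were lower. The 3 PKA inhibitors and related kinases tested were within 2-fold. Of 5 immediate early genes that CREB is known to drive, *Sik1* was 2.26-fold higher and *Egr1* 2.95-fold lower.

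Chromatin was compared on classes made from RNA alone, with 786 Leydig-like and 2872 progenitor-like nuclei, so that the peaks had no part in the classes. Each promoter is the sum of transposase cuts in peaks within 1 kb of an annotated start, and 46 members had one with at least 20 cuts. At a threshold of 1.5-fold, 6 were more accessible in Leydig-like nuclei, 13.0% beside a background of 11.1% of all promoters: *Pde8b* (2.16, 1.38 to 3.31), *Akap12* (1.88, 1.39 to 2.56), *Akap9* (1.66, 1.07 to 2.55), *Akap5* (1.58, 1.06 to 2.35), *Prkar2a* (1.53, 1.09 to 2.12) and *Crem* (1.53, 1.26 to 1.87). Another 3 were less accessible, 6.52% beside a background of 11.3%: *Adcy4* (0.248, 0.0745 to 0.756), *Pde1c* (0.370, 0.128 to 1.01) and *Pde4c* (0.615, 0.337 to 1.12), the last 2 with intervals that include no difference. The members were thus near or under the background in both directions.

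RNA and promoter did not always move alike. The *Prkar2b* promoter held 121 cuts in Leydig-like and 548 in progenitor-like nuclei, or 52.3 and 50.9 per 1000000 cuts, a ratio of 1.03 (0.771 to 1.37). It was at 59.9 in germ-like, 51.5 in surface epithelium-like, 44.2 in Sertoli-like and 40.9 in mesonephric mesenchyme-like nuclei, so that the 6 classes lay close together. In these RNA-only classes no cluster was named contractile-like, and the class called mesonephric mesenchyme-like held 963 nuclei against 393 above, with *Myocd* and *Caln1* among its leading genes. The RNA ratio of *Prkar2b* between Leydig-like and progenitor-like nuclei was 18.4 (17.8 to 19.1) on classes made from ATAC alone. *Adcy9* had a promoter ratio of 1.02 (0.783 to 1.33) on classes from RNA alone and an RNA ratio of 3.56 on classes from ATAC alone, and *Pde8a* ratios of 1.14 (0.826 to 1.56) and 5.05. *Pde8b* was higher in both, with 28.5 against 13.2 promoter cuts per 1000000 and an RNA ratio of 21.8. *Akap12* went opposite ways, with an RNA ratio of 0.407 (0.358 to 0.462).

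**Figure D4:**
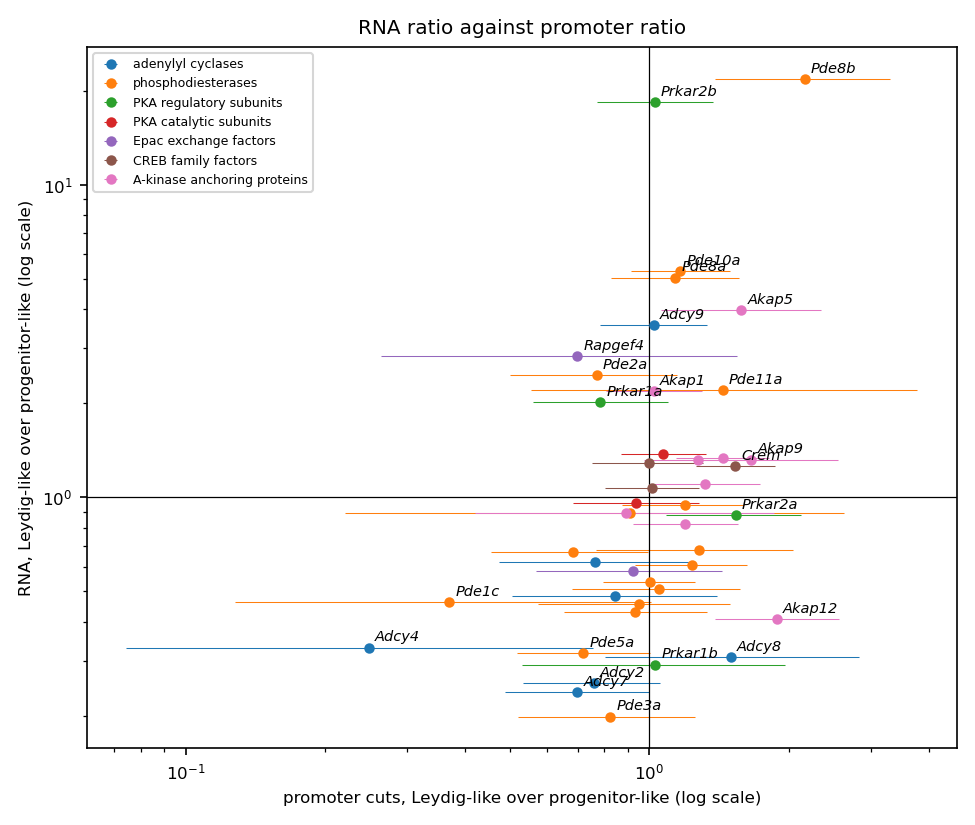
Ratio of Leydig-like over progenitor-like nuclei for promoter cuts (horizontal axis, classes from RNA alone, bars give exact 95% intervals on cut pairs) and RNA (vertical axis, classes from ATAC alone) for members with a tested promoter and at least 100 UMIs, on log scales. *Prkar2b* combines an RNA ratio of 18.4 with a promoter ratio of 1.03, whereas *Pde8b* is high on both axes.

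Peaks in and within 10 kb of the member genes gave 522 with at least 20 cuts. Of these, 78 were at least 2-fold more accessible in Leydig-like nuclei, 14.9% beside a background of 12.7% of all peaks, and 112 were less accessible, 21.5% beside a background of 23%. *Pde8b* had 7 of its 11 peaks higher and none lower, *Pde10a* 7 of 17 higher and 2 lower, *Prkar2b* 4 of 10 higher and none lower, and *Adcy9* 3 of 10 higher and none lower. Other members with higher RNA in Leydig-like nuclei had fewer higher peaks or more lower than higher ones. *Rapgef4* had 3 of 28 peaks higher and 10 lower, *Pde2a* 1 of 16 higher and 4 lower, *Akap1* 1 of 8 higher and 2 lower, *Akap5* and *Prkar1a* 1 of 4 higher each and none lower, and *Pde8a* none of 4 in either direction. Among members with lower RNA, *Pde5a* had 7 of 13 lower, *Adcy7* 5 of 9 and *Pde3a* 7 of 16, with none higher, whereas *Pde4b* had 2 of 11 in each direction and *Prkar1b* 2 of 14 higher and 7 lower.

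The central 300 bases of the most Leydig-biased peak of *Prkar2b*, *Pde8b* and *Adcy9* are shown as examples of Leydig-biased peaks of a PKA subunit, a phosphodiesterase and a cyclase. The same was read for *Pde10a*, *Rapgef4* and *Akap5*, which are not printed. All are in GRCm38 on the minus strand, on which the 3 genes lie, and all fall in introns, 86846, 10478 and 60198 bases downstream of the nearest annotated start. They held 25, 25 and 57 cuts in Leydig-like nuclei, against 13, 5 and 36 in progenitor-like nuclei. Leydig-like nuclei held 2314523 cuts in all and progenitor-like nuclei 10756659. The ratios were 8.94 (3.20 to 25.5), 23.2 (5.53 to 110) and 7.36 (4.02 to 14.3). Each peak was picked for the largest ratio among peaks of its gene with at least 20 cuts in Leydig-like nuclei. The intervals do not allow for this choice, which favours large ratios. Capitals mark the site CAAGGTCA, read on both strands, which the nuclear receptor NR5A1 is known to bind.

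*Prkar2b*, chr12:31973593-31973892: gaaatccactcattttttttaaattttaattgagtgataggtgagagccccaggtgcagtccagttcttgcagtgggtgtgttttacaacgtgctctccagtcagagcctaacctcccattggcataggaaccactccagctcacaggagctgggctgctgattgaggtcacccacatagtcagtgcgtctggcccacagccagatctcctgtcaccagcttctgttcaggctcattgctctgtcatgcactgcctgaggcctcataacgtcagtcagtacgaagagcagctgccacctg

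*Pde8b*, chr13:95239646-95239945: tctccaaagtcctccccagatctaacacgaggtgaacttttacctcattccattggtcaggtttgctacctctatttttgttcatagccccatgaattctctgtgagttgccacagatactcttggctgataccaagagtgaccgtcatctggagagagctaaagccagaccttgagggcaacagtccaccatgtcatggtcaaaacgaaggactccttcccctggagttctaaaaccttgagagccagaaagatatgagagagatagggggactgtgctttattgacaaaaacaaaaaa

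*Adcy9*, chr16:4359239-4359538: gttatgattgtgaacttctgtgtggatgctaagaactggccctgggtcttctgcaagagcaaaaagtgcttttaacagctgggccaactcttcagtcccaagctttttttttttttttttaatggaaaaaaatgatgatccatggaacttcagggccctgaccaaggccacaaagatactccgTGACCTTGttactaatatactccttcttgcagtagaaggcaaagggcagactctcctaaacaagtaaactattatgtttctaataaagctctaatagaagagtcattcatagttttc

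Of the 6 sequences read, 1 holds the site, that of *Adcy9*, on the opposite strand. Over the central 300 bases of peaks, the site was in 7 of the 78 higher member peaks (8.97%), in 3 of the 112 lower ones (2.68%) and in 6.18% of all 109183 peaks on the assembled chromosomes. These counts are a description of letters and no test of binding.

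The cAMP response element itself, TGACGTCA, was looked for in the RefSeq promoters of GRCm38, 250 bases before to 50 after a start, which were given for 46 members with 88 starts. It was in 2 overlapping promoters of 1 member, *Prkar1a*, and in 1.79% of 32817 promoters of all genes. In the central 300 bases of peaks it was in 11 of the 522 member peaks (2.11%) and in 0.797% of all peaks, with 1 of the 78 higher and 2 of the 112 lower ones. The shorter form TGACG, which overlaps the full element, was in 18 of the 88 (20.5%) and in 20.8% of all promoters. The *Prkar1a* promoter on the plus strand is shown because *Prkar1a* was 2.14-fold (1.99 to 2.31) higher in Leydig-like nuclei, and its element, in capitals, begins 49 bases before the start:

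*Prkar1a*, chr11:109650699-109650998: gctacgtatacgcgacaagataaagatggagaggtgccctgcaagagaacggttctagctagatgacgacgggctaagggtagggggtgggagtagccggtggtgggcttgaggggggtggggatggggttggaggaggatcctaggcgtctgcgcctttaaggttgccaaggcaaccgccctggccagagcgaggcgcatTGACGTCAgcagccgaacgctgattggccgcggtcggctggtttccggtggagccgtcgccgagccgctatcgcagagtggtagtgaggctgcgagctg

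The *Prkar1a* promoter peak was not more accessible in Leydig-like nuclei, with a ratio of 0.784 (0.560 to 1.10) from 85 and 504 cuts.

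**Figure D5:**
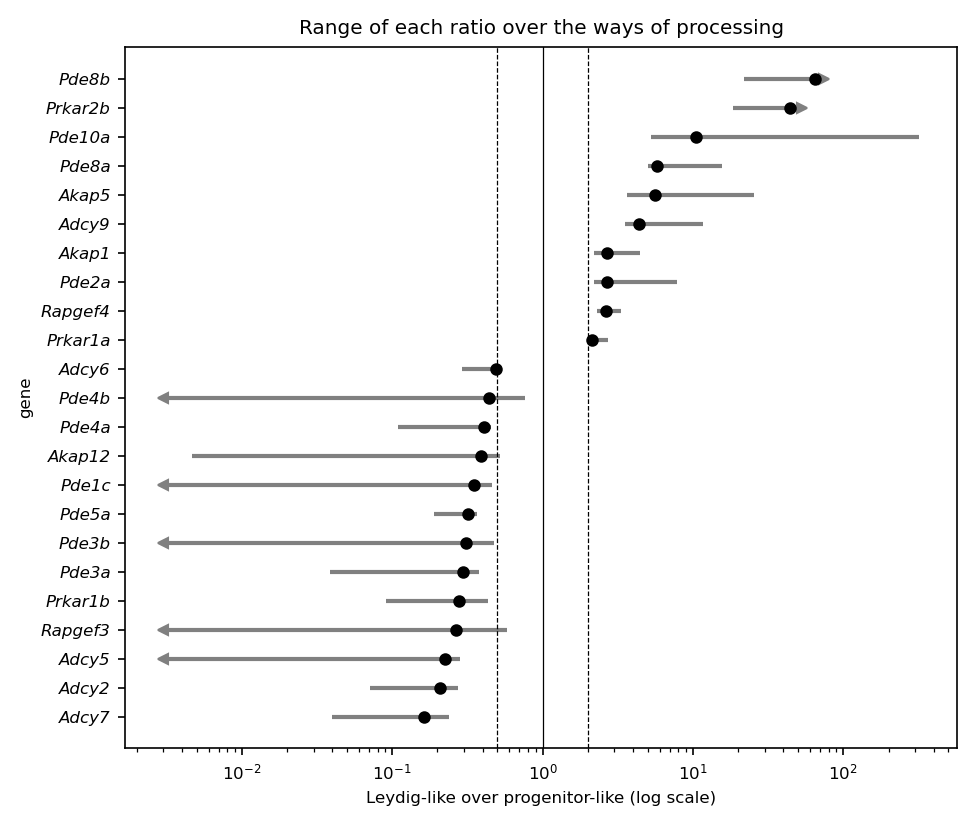
Ratio of Leydig-like over progenitor-like RNA levels (horizontal axis, log scale) of the 23 members past 2-fold (rows); points give the reported ratio and grey lines its range over the other ways of processing, the dashed lines mark 2-fold, and an arrowhead marks a range with a level of 0 after free RNA was subtracted. The 10 higher members stayed above 2-fold throughout, and *Pde4b*, *Akap12*, *Adcy6* and *Rapgef3* crossed the threshold of 0.5 in some settings.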

How the data were processed

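The authors aligned 1 RNA and 1 ATAC library of the same nuclei to mm10 with Cell Ranger ARC 2.0.1 and deposited whole-number counts of UMIs per gene and of transposase cuts per peak, with no normalization. Of 9833 barcodes, 7667 had under 10% mitochondrial, 10% ribosomal protein and 0.5% hemoglobin UMIs, more than 500 genes, a share of fragments at peaks above 20% and 250 to 25000 such fragments. Scrublet (scanpy 1.11.5) ranked doublets and 470 were removed. The doublet and free RNA corrections named in the study's methods were not used. In the setting with free RNA subtracted, a share of the profile pooled over all barcodes, nuclei included, was taken from each class. The share was the median level of markers of other classes relative to that profile. It ran from 31.1% in erythroid-like to 57.2% in endothelial-like nuclei. Seurat 5.3.0 (R 4.3.3, irlba 2.3.5.1) clustered nuclei on both assays with 2000 variable genes, 30 components and resolution 0.3. The 56 members and 961 peaks within 100 kb were left out, as was the first chromatin component, which followed depth (r = -0.9455).

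Classes were named from marker genes. Levels are CPM (summed UMIs of a gene per 1000000 of the class) with exact Poisson intervals, and ratios have exact conditional binomial intervals, in Python 3.11.15 with NumPy 2.4.6, SciPy 1.17.1 and pandas 2.3.3. ATAC intervals use cut pairs, since 87.4% of nonzero peak counts were even. A ratio was counted from 100 UMIs (20 cuts for a peak or promoter) and past 2-fold, or 1.5-fold for promoters. With 1 library per assay no p-value was computed. Interval coverage was checked on Poisson counts simulated from a pooled profile. This checks the computation only, since differences between nuclei were left out of the simulation. Promoters were taken from GENCODE M21 starts instead of the single start per gene first planned, since gene spans cover many starts.

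Members and gene lists were chosen with earlier results of these data known. Named genes are the members past 2-fold between Leydig-like and progenitor-like nuclei or in a class of at least 300 nuclei over all other nuclei, the 3 of largest ratio in smaller classes, their promoters, and up to 3 genes of largest ratio either way per pathway list. Others are named for context. Planned protein sequences were not used here.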

Additional observations from a re-analysis of the deposited data

How the results depend on the processing

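All 10 members higher in Leydig-like than in progenitor-like nuclei stayed at least 2-fold higher under every alternative tried, with *Prkar2b* between 18.4 and 53.0 and *Pde8b* between 21.8 and 74.7 where a ratio could be made. With free RNA subtracted, the progenitor-like level of *Prkar2b* and *Pde8b* was 0. This follows from the method, which took 34.3% of the pooled profile from progenitor-like nuclei. Any gene below that share of its pooled level was set to 0. Of the 13 lower members, 9 stayed past 2-fold, and *Pde4b*, *Akap12*, *Rapgef3* and *Adcy6* did not. Counts at other settings were as follows, each with the share of all genes or promoters past the same threshold at that setting, and the cause was not tested except where the fold itself was changed. With Scrublet's automatic threshold, surface epithelium-like nuclei had 5 of 48 members higher than other nuclei (6.01% of all genes) and 7 of 46 promoters were less accessible (15.9%). With minimums of 1000 genes and 1000 fragments the contractile-like and surface epithelium-like counts were 3 and 5 of 48 (3.4% and 5.17%). At resolution 0.6 the germ-like count was 2 of 49 (13.4%). There 390 nuclei were named germ-like, and unnamed clusters of 531 and 68 nuclei, nearest to germ by markers, were among the other nuclei. With free RNA subtracted the contractile-like count was 9 of 49 (6.99%) and those of germ-like, mesonephric mesenchyme-like and surface epithelium-like nuclei were 8 each (24.6%, 8.63% and 8.65%). A fold of 1.5 gave 9 germ-like (27.0%), 5 Sertoli-like (13.6%), 10 contractile-like (8.52%), 9 mesonephric mesenchyme-like (9.44%) and 9 surface epithelium-like (9.89%) members of 49. A fold of 3 gave 6 higher (6.14%) and 8 lower (7.06%) of 43 members between Leydig-like and progenitor-like nuclei, and 3 progenitor-like (1.81%), 5 Leydig-like (4.07%) and 1 contractile-like (0.998%) members of 49 over other nuclei. The other 109 counts were within 1.5 times. Of the ratios of single members, 269 moved out of their counting interval and 593 did not, and none past its threshold changed direction. The ratio of Leydig-like over progenitor-like nuclei ran from 5.28 to 320.1 for *Pde10a* and from 3.64 to 25.4 for *Akap5*, highest with free RNA subtracted. Over other nuclei, that of *Adcy7* in progenitor-like nuclei ran from 3.41 to 11.1, also highest there. Leydig-like over progenitor-like ratios ran from 3.56 to 11.6 for *Adcy9*, from 0.0711 to 0.274 for *Adcy2* and from 0.0397 to 0.238 for *Adcy7*. They ran from 0.0386 to 0.379 for *Pde3a* and from 0 to 0.475 for *Pde3b*. Leaving out nuclei over 50000 UMIs, joining contractile-like to progenitor-like nuclei and leaving out the cycling cluster were chosen after seeing the data. With the other choices as reported, no cluster was named contractile-like from RNA alone, from ATAC alone or with no doublets removed, so these give no value for it. No paired analysis was possible because each assay has 1 library.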
